A study of Mus musculus with 6 samples.

Results

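The genes examined were the nuclear-encoded subunits of the mitochondrial respiratory chain and of ATP synthase, chosen by gene symbol alone (Nduf, Sdh, Uqcr, Cox and Atp5 genes). The rule found 82 of the 18182 genes in the files: 37 for complex I, 4 for complex II, 8 for complex III, 16 for complex IV and 17 for complex V. RNA sequencing was performed on LLC cells (Lewis lung carcinoma, a mouse line of lung cancer) carrying red fluorescent protein (LLC-RFP) and grown under the skin of wild type C57BL/6 mice. In the LLC alone group (3 libraries) only LLC-RFP cells were injected, and in the LLC with BMSCs group (3 libraries) they were injected together with bone marrow-derived mesenchymal stem cells (BMSCs). Cells positive for red fluorescent protein were sorted from the primary cancer sites of both groups, so host cells and BMSCs should have been removed as far as the sort allowed. No label tells whether the libraries of a group came from separate mice, so p-values measure the spread between these libraries, which may be technical.

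The respiratory chain sits in the inner mitochondrial membrane. Complex I takes electrons from NADH and complex II from succinate, complex III passes them to cytochrome c, and complex IV gives them to oxygen. Complexes I, III and IV pump protons, and ATP synthase (complex V) lets the protons flow back to make ATP. Most subunits are small proteins encoded in the nucleus from short, abundant mRNAs, and a few core subunits are encoded by mitochondrial DNA. The mitochondrially encoded subunits were looked for by symbol, but 0 were found in the files, so they could not be analysed.

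The subunit genes were among the abundant genes of these cells. Of the 82 genes, 79 passed the filter on low counts, and their median level was 145 FPKM (fragments per kilobase of transcript, scaled to the library total) in LLC alone against 93.9 in LLC with BMSCs. The 82 genes held 1.06%, 1.07% and 1.26% of all counts in the LLC alone libraries and 0.841%, 0.908% and 0.888% in the LLC with BMSCs libraries, so the groups did not overlap. The median level in LLC alone was 259 FPKM for complex IV, 238 for complex V, 148 for complex III, 95.9 for complex I and 92 for complex II, and the most abundant member was Atp5b of complex V. The genes left out of the tests were Cox4i2, Cox7b2 and Cox8b, isoforms of complex IV with restricted expression, listed at no more than 0.18 FPKM in any library.

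Nuclear genes of the respiratory chain are known to carry sites for the transcription factors NRF1, the ETS-family factor GABP and YY1 near their start. RefSeq promoters of build GRCm38.p6, running from 250 bases before to 50 bases after the gene start, were found for 68 of the 82 genes. On either strand, the NRF1 letters GCGCANGCG were present in 27.9% of these 68 promoters, in 13.7% of the 10201 promoters of tested genes and in 6.47% of all 27018 promoters. For the ETS letters CCGGAAG the shares were 22.1%, 18.3% and 9.12%, and for the YY1 letters GATGGCG 14.7%, 6.67% and 3.66%. The promoters printed here are those of the complex IV subunit Cox6a1, the ATP synthase subunit Atp5k and the complex II flavoprotein Sdha, which fell by different amounts and hold motif letters, and those of Ndufb11, the most strongly lowered member of complex I, and Ndufb5, the member called higher, which hold none. Each runs 5′ to 3′ along the gene's strand, capitals mark the motif letters or their reverse complement, and an NRF1 match that reads the same on both strands was counted on each.
Cox6a1, chr5:115348909-115349208, reverse strand: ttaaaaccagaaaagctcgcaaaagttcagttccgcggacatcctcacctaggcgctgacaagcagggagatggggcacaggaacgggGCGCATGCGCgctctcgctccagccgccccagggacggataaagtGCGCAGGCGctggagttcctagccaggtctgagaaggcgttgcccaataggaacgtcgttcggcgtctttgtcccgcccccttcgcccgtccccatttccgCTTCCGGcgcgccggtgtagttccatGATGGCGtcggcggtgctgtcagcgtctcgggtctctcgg
Atp5k, chr5:108434350-108434649, reverse strand: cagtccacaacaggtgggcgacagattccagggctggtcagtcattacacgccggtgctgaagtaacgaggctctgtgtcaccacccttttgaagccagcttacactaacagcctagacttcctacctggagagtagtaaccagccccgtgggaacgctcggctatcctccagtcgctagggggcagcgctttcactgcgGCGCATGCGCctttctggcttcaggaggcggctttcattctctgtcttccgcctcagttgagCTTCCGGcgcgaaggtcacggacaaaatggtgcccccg
Sdha, chr13:74350191-74350490, reverse strand: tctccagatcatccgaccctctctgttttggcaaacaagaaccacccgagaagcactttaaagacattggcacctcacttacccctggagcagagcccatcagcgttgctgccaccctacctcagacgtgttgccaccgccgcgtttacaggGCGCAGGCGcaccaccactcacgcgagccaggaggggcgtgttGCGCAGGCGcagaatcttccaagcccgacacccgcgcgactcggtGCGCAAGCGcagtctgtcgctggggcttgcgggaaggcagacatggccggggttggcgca
Ndufb11, chrX:20617570-20617869, reverse strand: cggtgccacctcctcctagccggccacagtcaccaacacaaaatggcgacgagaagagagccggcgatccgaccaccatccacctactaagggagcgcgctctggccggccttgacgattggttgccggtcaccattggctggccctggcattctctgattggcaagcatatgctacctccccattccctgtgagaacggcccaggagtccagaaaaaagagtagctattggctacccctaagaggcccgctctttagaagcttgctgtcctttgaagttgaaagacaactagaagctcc
Ndufb5, chr3:32736813-32737112, forward strand: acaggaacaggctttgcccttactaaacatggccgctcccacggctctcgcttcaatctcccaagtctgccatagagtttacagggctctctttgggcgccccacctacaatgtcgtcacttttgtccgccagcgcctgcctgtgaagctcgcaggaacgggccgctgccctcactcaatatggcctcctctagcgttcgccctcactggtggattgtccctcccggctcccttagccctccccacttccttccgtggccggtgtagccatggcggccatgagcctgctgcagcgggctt

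In LLC with BMSCs, the subunit genes were mostly lower than in LLC alone. By edgeR's quasi-likelihood test with Benjamini-Hochberg adjustment over 13353 tested genes, 54 of 79 members were lower (68.4%), against a background of 31.3% of all tested genes, and 1 was higher, against 31.5% of all tested genes. The falls were small: 50 of the 54 were smaller than a halving, that is a log2 fold change above -1, and the median log2 fold change of the 79 members was -0.41, against 0.01 over all tested genes. A negative log2 fold change was found for 74 of the 79 members. In FPKM, the 3 LLC with BMSCs libraries all lay below the 3 LLC alone libraries for 57 members, where 33.7% of all tested genes did so. They all lay above for 0 members, where 37% of all tested genes did so. The remaining 24 members were not called.

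The same libraries differed by transcript length, and the subunit genes are short. From the shortest to the longest quintile of all tested genes, the median log2 fold change ran -0.28, -0.10, 0.04, 0.10 and 0.26, and 67 of the 79 members were in the shortest quintile. Among all tested genes from 418 to 1938 bases, the 5th to the 95th percentile of the members' lengths, the median was -0.22, 44.7% were lower and 16.9% higher. For 47.2% of the genes in this range, all LLC with BMSCs libraries lay below all LLC alone libraries in FPKM. The members' median was thus 0.19 below that of genes in this range. The median length was 1333 bases in the range and 707 bases for the members, so lengths were not fully matched. Among genes under 800 bases, 35 of 47 members were lower with a median of -0.43, and over all 646 tested genes of that size 47.2% were lower with a median of -0.35.

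**Figure D1:**
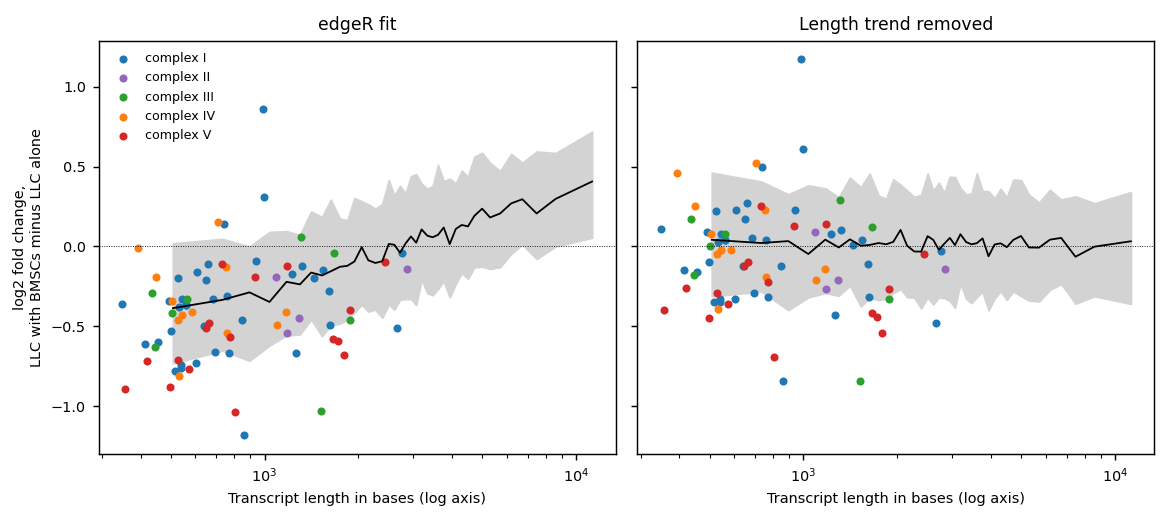
The log2 fold change of LLC with BMSCs minus LLC alone against transcript length in bases (log axis), in the edgeR fit (left) and with the length trend removed (right). The line and band are the median and quartiles of bins of all tested genes, and the points are the subunit genes by complex, without Cox6a2, which lies below the axis at -4.09 and -3.73; on the left, most points lie at the short end, on or below the line.

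One library stood apart in this respect. Relative to the mean of the 6 libraries on the log2 CPM scale (counts scaled to the library total), the members' median lay at 0.11, 0.09 and 0.41 in LLC alone replicates 1 to 3 and at -0.29, -0.14 and -0.18 in those of LLC with BMSCs. The shortest quintile of all genes followed the same order of libraries, at 0.06, 0.04 and 0.31 against -0.19, -0.09 and -0.11, and the longest quintile ran the other way, with -0.37 in LLC alone replicate 3. Without LLC alone replicate 3, 53 members were lower and 4 higher, with a median of -0.31. It lay 0.17 below that of tested genes in the members' length range. Transcript length and group moved together in these libraries, and whether the length trend came from the RNA, the libraries or the cells was not tested.

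**Figure D2:**
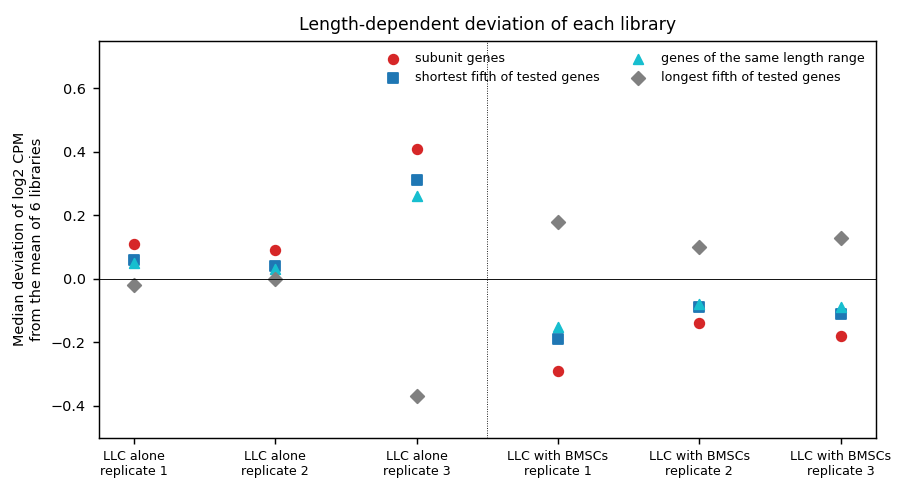
Median deviation of log2 CPM from the mean of the 6 libraries, for the subunit genes, tested genes of the same length range, and the shortest and longest quintile of tested genes. The subunit genes lie above 0 in the 3 LLC alone libraries, most in replicate 3 (0.41), and below 0 in the 3 LLC with BMSCs libraries, on the same side as the short genes and opposite to the longest in each library that departs from 0.

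With each library's trend over length removed by an offset, the picture became mixed. Then 35 members were lower and 17 higher, where 34.2% and 35.6% of all tested genes and 32.9% and 34% of those in the length range were called, and the median log2 fold change was -0.10, against 0.02 in the length range. All 35 were among the 54 of the fit without the offset, 19 of the 54 were no longer called, and 0 turned from lower to higher. The 17 higher members were Ndufb5 and 16 that had not been called. Members whose estimated counts were fractional in some library, and so shared reads with other genes, were lower in 13 of 14 cases (92.9%, against 31.3% of all tested genes). With the length trend removed 11 were lower (78.6% against 34.2%), and the medians in the 2 fits were -0.57 and -0.31. The share of lower genes among all genes with fractional counts was not determined. Of the 65 tested members with whole counts, 41 were lower (63.1%) and 1 higher, with a median of -0.36. Once the length trend was removed, 24 were lower (36.9%, near the 34.2% of all tested genes) and 16 higher (24.6% against 35.6%), with a median of -0.00. In all, 32 members were lower in the edgeR fit and in each of the 21 alternative fits: 13 of complex I (among them Ndufa1, Ndufa7, Ndufb11 and Ndufs5), Sdhc and Sdhd, Uqcrc2 and Uqcrq, Cox4i1, Cox6a1, Cox6a2 and Cox7a2l, and 11 Atp5 genes (Atp5b, Atp5e, Atp5f1, Atp5g1, Atp5h, Atp5j2, Atp5k, Atp5l, Atp5o, Atp5s and Atp5sl). For Cox6a2 this covers 20 fits, since it was not tested when 10 counts were required in every library.

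**Figure D3:**
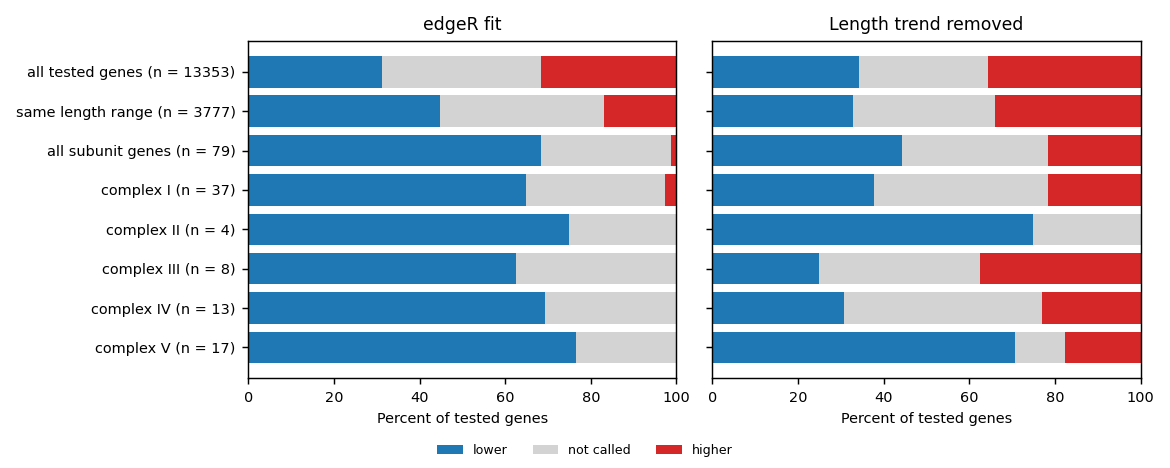
Percent of tested genes called lower (blue), not called (grey) and higher (red) in LLC with BMSCs, for all tested genes, tested genes of the members' length range, all subunit genes and each complex, in the edgeR fit (left) and with the length trend removed (right). On the left the blue share of the subunit genes is 68.4% against 31.3% of all tested genes, and on the right complexes II and V keep the largest blue shares.

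In complex I, which opens the chain, 24 of 37 genes were lower (64.9%, against 31.3% of all tested genes) and 1 higher. The higher share was 2.7% against 31.5%, and the median was -0.36 on the log2 scale. Among tested genes in the members' length range, 44.7% were lower. With the length trend removed, 14 were lower (37.8%, near the 34.2% of all tested genes) and 8 higher (21.6% against 35.6%). The median was then 0.03. In the edgeR fit, 3 of 7 core subunits that carry the electrons were lower (42.9%), with a median of -0.28. Of the other subunits, 21 of 29 were lower (72.4%), with a median of -0.37. Ndufb11, an accessory subunit of the membrane arm, fell the most. Its level was 161, 150 and 197 FPKM in the LLC alone libraries and 75.6, 77.7 and 74.5 FPKM in the LLC with BMSCs libraries, so the lowest LLC alone library was far above every co-injected one. This is a log2 fold change of -1.18 (SE 0.105, edgeR adjusted p = 5.25e-05), a 2.26-fold fall, and -0.84 with the length trend removed. The estimated count of Ndufb11 was fractional in all 6 libraries, which marks reads divided with other genes. In the GENCODE M21 annotation Ndufb11 shares 117 exon bases with Rbm10 on the opposite strand, a gene that rose by a log2 fold change of 0.75. Counting by strand is not stated in the sources used here.

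Small accessory subunits of complex I followed. Ndufa1 had 131, 129 and 181 FPKM in LLC alone against 80.8, 90.6 and 90.3 FPKM in LLC with BMSCs, a log2 fold change of -0.78 (edgeR adjusted p = 0.00157). Ndufs5 had 148, 119 and 170 against 80.5, 89 and 93.2 FPKM, a log2 fold change of -0.76 (edgeR adjusted p = 0.00132). In both, the groups were separate, LLC alone replicate 3 was the highest library, and the log2 fold change was -0.35 with the length trend removed. Ndufa4, the most abundant Nduf gene, whose product has been assigned to complex IV in later work, had 382, 357 and 468 FPKM against 314, 331 and 323 FPKM. Its log2 fold change of -0.34 (edgeR adjusted p = 0.0198) turned to 0.09 without a call when the length trend was removed.

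Of the core subunits fixed for description, Ndufv1, which binds NADH and passes its electrons to flavin, was lower at 70 to 75.9 FPKM against 81.8 to 96.2 FPKM in LLC alone, a log2 fold change of -0.28 (edgeR adjusted p = 0.0155) that was -0.11 with the length trend removed and was called in 16 of 21 alternative fits. Ndufs1, the largest iron-sulfur subunit, had 61.3, 65.8 and 64.4 FPKM in LLC alone against 59.2, 64.3 and 64 in LLC with BMSCs. These levels overlapped, and the log2 fold change was -0.04 ± 0.0589 (SE). Ndufs1 has the longest transcript of the Nduf genes, at 2771 bases.

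Ndufb5, an accessory subunit of the membrane arm, was the member called higher. Its level was 49, 55.6 and 62.5 FPKM in LLC alone against 62.1, 75.7 and 72.6 in LLC with BMSCs. The groups overlapped in LLC alone replicate 3 and LLC with BMSCs replicate 1, and the log2 fold change was 0.31 (SE 0.108, edgeR adjusted p = 0.0363), called in 14 of 21 alternative fits and 0.61 with the length trend removed. Ndufb5 shares 158 exon bases with Mrpl47 on the opposite strand, a mitochondrial ribosomal protein gene that rose by a log2 fold change of 0.45. Ndufa4l2, a paralogue of Ndufa4 known to rise in hypoxia, was close to absent in both groups, at 0.31, 0.1 and 0.28 FPKM in LLC alone against 0.61, 0.45 and 0.27 in LLC with BMSCs. Its log2 fold change of 0.86 missed the threshold (edgeR adjusted p = 0.118) and its groups overlapped. With the length trend removed it was called higher, at 1.17 (edgeR adjusted p = 0.0364), and 3 of the 18 alternative fits that tested it made that call.

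**Figure D4:**
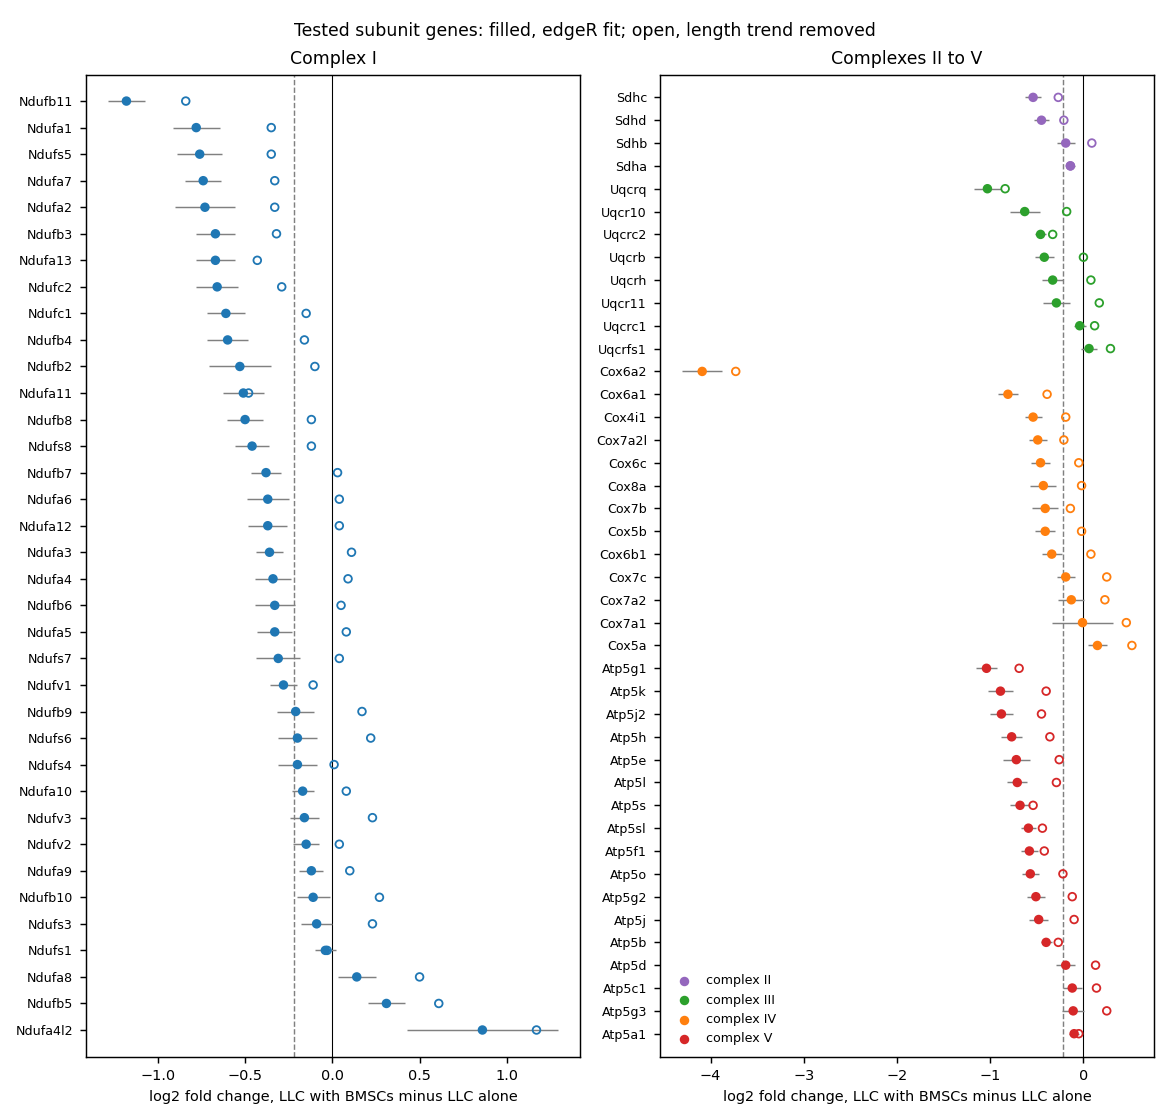
The log2 fold change of LLC with BMSCs minus LLC alone for the tested subunit genes but 1, with the standard error, coloured by complex (filled points, edgeR fit; open points, length trend removed; dashed line, median of tested genes of the same length range, -0.22). Most filled points lie left of 0, open points are further right, and Cox6a2 stands apart at -4.09; the x axes of the panels differ.

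In complex II, which also belongs to the tricarboxylic acid cycle, 3 of 4 genes were lower in both fits. That is 75%, against 31.3% of all tested genes in the edgeR fit and 34.2% with the length trend removed. In the members' length range these shares were 44.7% and 32.9%. Both membrane anchors were lower. Sdhc had 114, 113 and 137 FPKM in LLC alone against 86.5, 85.2 and 82.9 in LLC with BMSCs, a log2 fold change of -0.54 (edgeR adjusted p = 0.000987). Sdhd fell by 0.45 on the log2 scale (edgeR adjusted p = 0.00171), from 87.4 to 102 FPKM in LLC alone to 65 to 71.8 FPKM in LLC with BMSCs. The groups were separate in both anchors, with LLC alone replicate 3 the highest library, and the calls remained with the length trend removed, at -0.27 and -0.21. Sdha, the flavoprotein that oxidises succinate, has a transcript of 2859 bases and showed a small fall with little spread, at 88.2, 90.1 and 88.7 FPKM against 80.9, 82.4 and 81.7 FPKM. Its log2 fold change of -0.14 (edgeR adjusted p = 0.0357) was called in 12 of 21 alternative fits and was again -0.14 with the length trend removed. Sdhb, the iron-sulfur subunit, was not called, with overlapping groups and a log2 fold change of -0.19 ± 0.0987 (SE).

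Complex III showed 5 of 8 genes lower (62.5%, against 31.3% of all tested genes), with a median log2 fold change of -0.37. In the members' length range, 44.7% of tested genes were lower. With the length trend removed, 2 were lower (25%, against 34.2% of all tested genes) and 3 higher (37.5%, near the 35.6% of all tested genes). Uqcrq, a small subunit near the ubiquinone sites, fell the most, with 104, 103 and 143 FPKM in LLC alone against 50.4, 61.8 and 62.1 in LLC with BMSCs. The groups were far apart, and the log2 fold change was -1.03 (SE 0.145, edgeR adjusted p = 0.000537), or -0.84 with the length trend removed. Uqcr10, another small subunit, fell by 0.63 on the log2 scale (edgeR adjusted p = 0.00951), from 206 to 331 FPKM in LLC alone to 160 to 184 FPKM in LLC with BMSCs, and was not called with the length trend removed. Uqcrb, the most abundant member over both groups, fell by 0.42 on the log2 scale (edgeR adjusted p = 0.00823) and had a log2 fold change of -0.00 with the length trend removed.

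The larger proteins of complex III gave different results. Uqcrc2, a core protein, had 75.7, 73.2 and 79.5 FPKM in LLC alone against 54.5, 58.2 and 55.7 FPKM in LLC with BMSCs, a log2 fold change of -0.46 (edgeR adjusted p = 0.000369) that stayed at -0.33 with the length trend removed. Its partner Uqcrc1 had 138, 141 and 156 FPKM against 140, 146 and 144 FPKM, with overlapping groups and a log2 fold change of -0.04 ± 0.0663 (SE). Uqcrfs1, the Rieske iron-sulfur protein, also overlapped, at 61.5, 65.6 and 75.6 FPKM against 67.5, 73.9 and 73.3 FPKM, with a log2 fold change of 0.06 ± 0.0874 (SE). With the length trend removed, Uqcrc1 was called higher at 0.12 (edgeR adjusted p = 0.0101) and Uqcrfs1 at 0.29 (edgeR adjusted p = 0.000365). Uqcrc2 shares 504 exon bases with Pdzd9 on the opposite strand.

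In complex IV, 9 of 13 tested genes were lower (69.2%, against 31.3% of all tested genes) and 0 higher (against 31.5%). The median was -0.41 on the log2 scale, and 44.7% of tested genes in the members' length range were lower. With the length trend removed, 4 were lower (30.8%, near the 34.2% of all tested genes) and 3 higher (23.1% against 35.6%). Cox4i1, the most abundant member and the ubiquitous isoform of its subunit, had 458, 496 and 549 FPKM in LLC alone against 314, 372 and 367 in LLC with BMSCs. The groups were separate and the log2 fold change was -0.54 (edgeR adjusted p = 0.00145), -0.19 with the length trend removed. Its lung and hypoxia-linked isoform Cox4i2 was listed at 0.13 FPKM or less in every library. Cox7a2l, a factor in the joining of complexes III and IV, had 162, 162 and 191 FPKM in LLC alone against 111, 133 and 130 in LLC with BMSCs, a log2 fold change of -0.49 (edgeR adjusted p = 0.00297) that stayed at -0.21 with the length trend removed.

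Both isoforms of subunit VIa were lower, by very different amounts. Cox6a1, the ubiquitous isoform, had 409, 414 and 536 FPKM in LLC alone against 263, 268 and 255 in LLC with BMSCs. Each LLC alone library was above each co-injected library, and the log2 fold change was -0.81 (SE 0.111, edgeR adjusted p = 0.000453), a 1.76-fold fall, and -0.39 with the length trend removed. Cox6a2, the isoform known from heart and skeletal muscle, had 4.5, 5.23 and 4.93 FPKM in LLC alone against 0.18, 0.37 and 0.3 in LLC with BMSCs, from 126, 106 and 138 counts against 5, 10 and 8 counts. This was the largest change of any member, a 17-fold fall with a log2 fold change of -4.09 (SE 0.216, edgeR adjusted p = 4.09e-06). Of the summed FPKM of both isoforms, Cox6a2 made up 1.08% ± 0.168 in LLC alone and 0.108% ± 0.0357 in LLC with BMSCs (SD, n = 3, two-sided exact permutation p = 0.1, the smallest that 3 against 3 libraries can give). The other skeletal muscle markers, of which 7 of 14 were in the files without the subunit genes, summed to between 1.65 and 2 CPM in LLC alone and between 2.25 and 2.63 CPM in LLC with BMSCs. The annotation places 70 exon bases of Cox6a2 opposite to Itgad.

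The remaining isoforms of complex IV showed smaller differences. Cox7a1, the muscle isoform of subunit VIIa, was low, at 0.81, 1.21 and 1.69 FPKM in LLC alone against 0.9, 1.42 and 1.43 in LLC with BMSCs, with overlapping groups and a log2 fold change of -0.01 ± 0.329 (SE). Its ubiquitous counterpart Cox7a2 was not called either, at 162, 158 and 215 FPKM against 142, 179 and 176 FPKM, a log2 fold change of -0.13 ± 0.139 (SE), and became higher at 0.23 with the length trend removed. Cox8a, a small membrane subunit, was lower at 235 to 285 FPKM against 298 to 428 FPKM, a log2 fold change of -0.43 (edgeR adjusted p = 0.0254) that was -0.02 with the length trend removed. Cox8b, its muscle isoform, was listed at 0 in all libraries but LLC with BMSCs replicate 2.

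The Atp5 genes, counted as complex V, had the lowest median of the complexes. Lower levels were found for 13 of 17 genes (76.5%, against 31.3% of all tested genes) and higher levels for 0 (against 31.5%). The median log2 fold change was -0.58, and 44.7% of tested genes in the members' length range were lower. With the length trend removed, 12 were lower (70.6% against 34.2%) and 3 higher (17.6% against 35.6%), with a median of -0.27. All 4 peripheral stalk genes (Atp5f1, Atp5h, Atp5j and Atp5o) and all 3 small membrane subunits (Atp5j2, Atp5k and Atp5l) were lower in both fits, with medians of -0.57 and -0.88 in the edgeR fit. Counts were fractional in some library for each of these stalk genes and for Atp5l, and whole for Atp5j2 and Atp5k. Of the 5 genes for the catalytic head and central stalk, 2 were lower, with a median of -0.19. The difference between these parts was not tested. Atp5s and Atp5sl fit the symbol rule and are counted among the 17 genes, but encode no ATP synthase subunit. Both were lower in both fits, with log2 fold changes of -0.68 and -0.59 in the edgeR fit.

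Among the small membrane subunits, Atp5k, subunit e, had 193, 156 and 232 FPKM in LLC alone against 112, 104 and 103 in LLC with BMSCs, a log2 fold change of -0.89 (SE 0.137, edgeR adjusted p = 0.000818). Atp5j2, subunit f, had 321, 300 and 411 FPKM against 178, 192 and 199 FPKM, a log2 fold change of -0.88 (SE 0.12, edgeR adjusted p = 0.000443). The groups did not overlap in either gene, and both were still lower with the length trend removed, at -0.40 and -0.45. Atp5b, the catalytic beta subunit and the most abundant member, had 1114, 1152 and 1229 FPKM in LLC alone against 884, 907 and 895 in LLC with BMSCs. This separation was wide for its spread, and the log2 fold change was -0.40 (SE 0.0578, edgeR adjusted p = 0.000608), -0.27 with the length trend removed. Atp5a1, the alpha subunit that alternates with beta in the catalytic head, had 281, 284 and 295 FPKM against 274, 275 and 267 FPKM. The groups did not overlap in Atp5a1, but the log2 fold change of -0.10 ± 0.0532 (SE) missed the threshold (edgeR adjusted p = 0.143).

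The c ring of ATP synthase is built from 1 mature protein that is encoded by 3 genes, and these genes did not move alike. Atp5g1 had 225, 208 and 280 FPKM in LLC alone against 123, 114 and 115 in LLC with BMSCs, a log2 fold change of -1.04 (SE 0.114, edgeR adjusted p = 0.00015) and -0.69 with the length trend removed. Atp5g2 was lower by 0.51 on the log2 scale without a call when the length trend was removed, and Atp5g3 was not called in the edgeR fit and higher by 0.25 with the trend removed. The summed level of the c subunit genes was 893 ± 117 FPKM in LLC alone against 662 ± 14.3 in LLC with BMSCs (SD, n = 3). Of this sum, Atp5g1 took 26.7%, 25.7% and 27.3% in LLC alone and 19%, 17% and 17.2% in LLC with BMSCs, and Atp5g3 took 36.1%, 38.7% and 38.2% against 43.2%, 50.4% and 50%. Both shares were separate between the groups, each with a two-sided exact permutation p of 0.1. The share of Atp5g2 overlapped, at 35.8% ± 1.34 against 34.4% ± 2.95 (SD, n = 3, exact permutation p = 0.6). The counts of Atp5g1 and Atp5g2 were fractional in all 6 libraries.

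**Figure D5:**
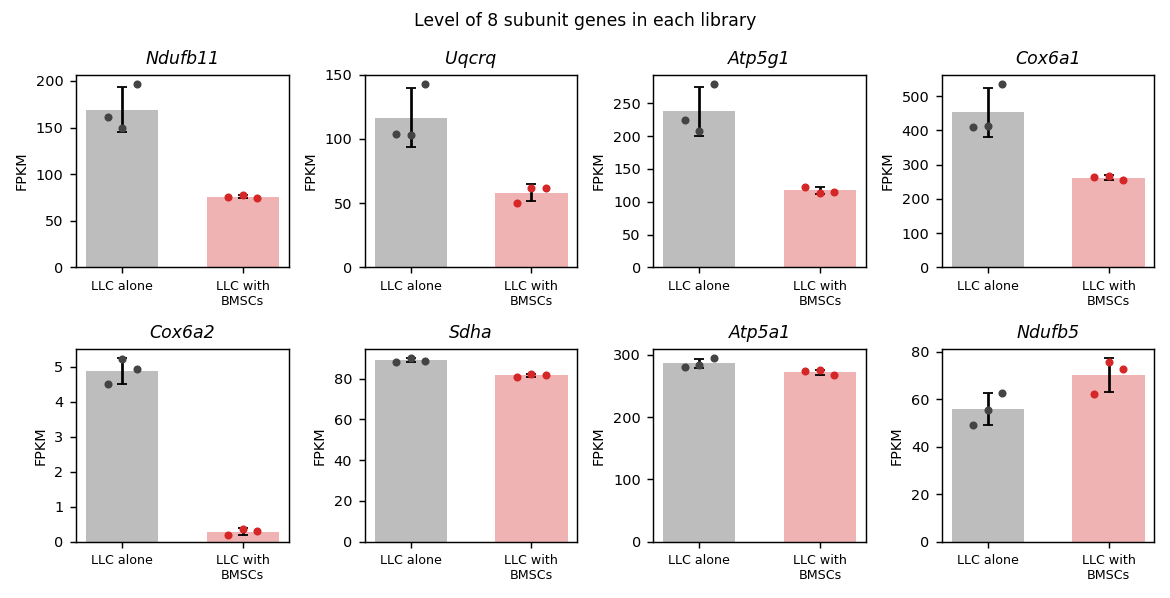
FPKM of 8 subunit genes in each library (points), with the mean and SD of each group of 3 (bars and error bars, axes from 0). Ndufb11, Uqcrq, Atp5g1, Cox6a1 and Cox6a2 are clearly separate between the groups, Sdha and Atp5a1 are separate by a narrow margin, and Ndufb5 is higher in LLC with BMSCs with overlapping libraries.

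Promoters with the motif letters were found among genes of either direction. In the edgeR fit, the NRF1 letters were present in 13 of 45 promoters of lower genes, in 6 of 20 of those not called and in 0 of 1 of those higher. With the length trend removed they were present in 10 of 28 promoters of lower genes, in 6 of 15 of those higher and in 3 of 23 of those not called. Cox6a1 and Sdha both hold NRF1 letters and had log2 fold changes of -0.81 and -0.14, and Ndufb11 and Ndufb5, which moved in opposite directions, hold none of the 3 motifs in this window.

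Other genes of the pathway were described from lists. Among factors that assemble the complexes, 30 of 49 tested genes were lower (61.2%, against 31.3% of all tested genes). Higher were 7 (14.3% against 31.5%), and the median on the log2 scale was -0.40. With the length trend removed, 29 were lower (59.2% against 34.2%) and 10 higher (20.4% against 35.6%), with a median of -0.22. The median length of these factors was 1440 bases, and 44.7% of tested genes from 418 to 1938 bases were lower in the edgeR fit. Coa4, a small protein linked to complex IV assembly, fell by 1.75 on the log2 scale (edgeR adjusted p = 2.83e-05), from 7.15, 6.78 and 8.81 FPKM to 2.12, 2.41 and 2.34 FPKM. Sco2, which delivers copper to complex IV, fell by 1.47 (edgeR adjusted p = 1.49e-05), and Tmem126b, a factor of complex I assembly, by 1.08 (edgeR adjusted p = 5.24e-05). Ecsit, another factor of complex I assembly, rose by 0.56 on the log2 scale (edgeR adjusted p = 0.000424), and Cox15, an enzyme of heme A synthesis, by 0.43 (edgeR adjusted p = 0.00024). These genes were chosen after their values were seen.

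Other respiratory chain genes formed a list that held subunits and carriers that the symbol rule missed, proteins that act with the chain, and Uqcc1 and Coa3, which were also counted among the assembly factors. Of its 16 tested genes, 10 were lower (62.5%, against 31.3% of all tested genes) and 2 higher (12.5% against 31.5%). With the length trend removed, 8 were lower (50% against 34.2%) and 3 higher (18.8% against 35.6%). Atpif1, the inhibitor protein of ATP synthase, had 108, 93 and 126 FPKM in LLC alone against 51.1, 56.4 and 60.8 in LLC with BMSCs, a log2 fold change of -0.98 (edgeR adjusted p = 0.000249), and the groups were separate. Etfb, which brings electrons from fatty acid oxidation, fell by 0.97 on the log2 scale (edgeR adjusted p = 6.4e-05), and Higd1a, a small mitochondrial protein induced in hypoxia, rose by 0.60 (edgeR adjusted p = 0.00108). Cyc1, a complex III subunit outside the symbol rule, and the electron carrier gene Cycs were not called, at 0.04 and -0.07 on the log2 scale. With the length trend removed, Cyc1 was called higher, at 0.31 (edgeR adjusted p = 0.000124). In the tricarboxylic acid cycle, 6 of 14 genes were lower (42.9% against 31.3%) and 2 higher (14.3% against 31.5%), with a median of -0.01. With the length trend removed, 7 were lower (50% against 34.2%) and 5 higher (35.7%, near the 35.6% of all tested genes). Dld, the dehydrogenase subunit shared with pyruvate dehydrogenase, fell by 0.90 (edgeR adjusted p = 9.39e-06), and Cs, citrate synthase, had a log2 fold change of -0.02 ± 0.0534 (SE).

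Of 13 tested regulators of mitochondrial genes, 4 were lower (30.8%, near the 31.3% of all tested genes) and 3 higher (23.1% against 31.5%). With the length trend removed, 3 were lower (23.1% against 34.2%) and 5 higher (38.5% against 35.6%). Esrra, a nuclear receptor that drives genes of oxidative metabolism, rose from 7.4, 7.41 and 8.12 FPKM to 13.6, 12.6 and 12.5 FPKM, a log2 fold change of 0.74 (edgeR adjusted p = 7.57e-05), and Nrf1 rose by 0.34 (edgeR adjusted p = 0.00218). Tfam, which packages and transcribes mitochondrial DNA, fell by 0.49 on the log2 scale (edgeR adjusted p = 0.00086). Ppargc1a, a coactivator of these factors, was at 0.04 FPKM or less in every library.

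Other families of short transcripts moved as well. Of 89 tested cytosolic ribosomal protein genes, 54 were lower (60.7%, against 31.3% of all tested genes) and 4 higher (4.49% against 31.5%). Their median was -0.38 on the log2 scale. With the length trend removed, 33 were lower (37.1% against 34.2%) and 22 higher (24.7% against 35.6%), with a median of -0.05. For 77 mitochondrial ribosomal protein genes the counts were 43 and 2 (55.8% and 2.6%), with a median of -0.26. With the length trend removed they were 27 and 27 (35.1% each, near the shares of all tested genes), with a median of -0.01. In the same fits, all tested subunit genes had medians of -0.41 and -0.10, and those of complex V -0.58 and -0.27.

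Markers of some other cell types also moved between the groups. Among all tested genes, 31.5% were higher and 31.3% lower. All 11 tested BMSC and fibroblast markers of 13 were higher in LLC with BMSCs. The summed level of the list was 488 to 571 CPM in LLC alone and 1024 to 1064 CPM in LLC with BMSCs. Its most abundant genes, Col3a1, Prrx1 and Eng, already had means of 41.2, 29.2 and 28.7 FPKM in LLC alone, against 100, 46 and 34.8. Col1a1 and Dcn rose from means of 0.0133 and 0.11 to 2 and 6.31 FPKM. The untested Thy1 and Cxcl12 were at 0.1 FPKM or less in every library. All 6 tested neutrophil markers of 10 were higher, with sums of 0.469 to 0.789 CPM against 18.3 to 21.2 CPM. The highest in LLC with BMSCs were S100a8 and S100a9, with means of 20.2 and 22.4 FPKM. No other marker of this list exceeded 1.26 FPKM in any library. Of the defining genes, Ly6g was listed at 0.11 FPKM or less in every library. Mpo was at 0 in LLC alone and at 0.13 to 0.3 FPKM in LLC with BMSCs. Of 12 macrophage markers, 8 were tested, 5 were higher and 2 lower, and their sum was 24.6 to 29.2 CPM in LLC alone and 34.3 to 36.5 CPM in LLC with BMSCs. Of 6 tested erythroid markers, 4 were higher and 1 lower, with sums of 8.64 to 9.11 CPM against 11.5 to 12.5 CPM, and the 1 tested lymphocyte marker, Ptprc, was higher, with a list sum of 0.39 to 0.542 CPM against 2.52 to 2.77 CPM. Endothelial markers (3 tested, 0 higher and 1 lower) summed to 2.99 to 3.94 CPM against 2.45 to 3.19 CPM, and adipocyte markers (1 tested, not called) to 0.585 to 0.736 CPM against 0.539 to 0.638 CPM. The part of such cells in the levels of the subunit genes was not tested, and in these bulk samples fewer cells of a type and less RNA per cell cannot be told apart.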

How the data were processed

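RNA sequencing of the 6 libraries is described by groups taken from the sample labels. The authors deposited, for each library, estimated counts for genes and transcripts (values that need not be whole), and FPKM, which divides by transcript length and library total, with a transcript length in bases. The processing notes name HISAT, StringTie, Cufflinks, GATK and mm8, without roles. A table of the whole series was not used here, because its names for the LLC alone columns match no sample title. Library totals were 33476347 to 46189113 counts.

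Counts were rounded. edgeR 4.0.16 (R 4.3.3) with TMM, its default filter and its quasi-likelihood test compared LLC with BMSCs against LLC alone, with Benjamini-Hochberg adjustment over 13353 tested genes and a threshold of 0.05. Fold changes are log2, LLC with BMSCs minus LLC alone. Length trends were removed by a lowess offset per library (span 0.3). Alternatives used DESeq2 1.42.0, limma 3.58.1 on log2(FPKM + 1) or log2(FPKM + 0.1), other scalings and filters, and libraries left out. The steps were also run on simulated counts, with larger changes than most members showed and the same spread for every gene. That run therefore does not measure their accuracy on these data. Replicates 1 and 2 of LLC alone, and 2 and 3 of LLC with BMSCs, lay close (median chi-square 1.96 and 1.68 times sampling noise, other pairs 4.85 to 13.1) but differed by more than sampling noise, and all were kept. Reads shared by near-identical genes are divided in such counts: 14 members had fractional counts in some library and 9 in all 6. In GENCODE M21, exons of 23 members overlap another gene.

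The members and gene lists were chosen with earlier results of these data known. Named genes were, within each complex, up to 3 largest rises and 3 largest falls among called members whose mean normalized count was 100 or more, the member with the highest FPKM, and a fixed list of catalytic subunits and isoforms. 1 tested member is not shown in the plot of single genes. Other gene names in the report, apart from those given as lists of calls, were chosen after their values were seen.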

Additional observations from a re-analysis of the deposited data

How the results depend on the processing

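Among the values of single named members under the alternatives, 549 kept direction and side of the threshold, 9 became called, 37 lost the call and 31 changed sign. The members called higher, 1 in the edgeR fit, were 0 with upper-quartile scaling, with limma on log2(FPKM + 1) without a filter, with the close replicate pairs summed, and with the stricter threshold, and 0 to 4 when each library was left out in turn. With the length trend removed, the length and GC trend removed, the replicate block with the length trend removed, and the length trend removed without LLC alone replicate 3 (chosen after seeing the data), the members called higher were 17, 18, 16 and 16, those called lower 35, 35, 34 and 33, and the median log2 fold change -0.10, -0.10, -0.10 and -0.09. The difference of this median from that of tested genes in the members' length range was -0.12, -0.11, -0.12 and -0.11. That difference was -0.36 with limma without a filter. With the stricter threshold (adjusted p under 0.001, log2 fold change of 0.5 or more in size), 13 members were lower. Leaving out each library gave 42 to 55 members lower, with 42 without LLC with BMSCs replicate 1 or 3. The cause of these shifts was not tested, apart from the stricter threshold.

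Same-numbered libraries of the groups did not deviate together (correlations of 0.076, -0.106 and 0.057), so their numbers do not pair them, and with the replicate block 53 members were lower and 1 higher. In the 4 fits with the length trend removed, in the order above, the sign changed for Ndufa4 (0.09, 0.08, 0.09 and 0.08), Sdhb (0.09 in each), Uqcrc1 (0.12, 0.09, 0.12 and 0.13), Cox7a1 (0.46, 0.46, 0.46 and 0.64) and Cox7a2 (0.23, 0.25, 0.22 and 0.27), and in 1 of them for Uqcrb (0.01, with GC) and Cox8a (0.01, without LLC alone replicate 3). When each library was left out in turn, Uqcrc1 ranged from -0.08 to 0.03, Cox7a1 from -0.26 to 0.32, Cox7a2 from -0.22 to 0.03 (the upper ends without LLC alone replicate 3) and Uqcrfs1 from -0.01 (without LLC alone replicate 1) to 0.16. Cox7a1 was 0.17 without LLC with BMSCs replicate 1, 0.01 without TMM, and 0.02, 0.04 and 0.02 in the 3 limma fits.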

Other observations

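Some members had more than 1 transcript, and these did not always move together. These transcripts were chosen after their values were seen, and their FPKM values rest on the authors' division of reads among isoforms, with no test. In Atp5j, the peripheral stalk subunit F6, transcript NM_001302214 had 132 ± 14 FPKM in LLC alone against 95.2 ± 13.9 in LLC with BMSCs, and NM_001302215 had 3.52 ± 1.23 against 11.6 ± 2.41 FPKM (SD, n = 3 in each group), so the minor transcript was higher where the major one was lower, and neither overlapped between the groups. In Ndufs1, whose gene level overlapped, NM_145518 had 27.4 ± 4.71 against 20.9 ± 1.09 FPKM and NM_001160039 had 16.8 ± 1.61 against 20.6 ± 1 FPKM, again without overlap. Both transcripts of Atp5g1 were lower, NM_001161419 from 150 ± 26.5 to 65.7 ± 4.28 FPKM and NM_007506 from 87.6 ± 11.7 to 51.7 ± 1.62 FPKM.

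Cox5a, a complex IV subunit, and Ndufa8, an accessory subunit of complex I, were also chosen after their values were seen. They had positive log2 fold changes of 0.15 and 0.14 without a call in the edgeR fit, and were higher at 0.52 and 0.50 with the length trend removed (edgeR adjusted p = 5.43e-06 and 4e-05).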
